A study of Arabidopsis thaliana with 12 samples.

Results

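The 200 probe sets with the strongest signal, among those not annotated to an organelle genome, in water-treated Arabidopsis thaliana seedlings were followed over 4 groups of arrays, out of 22746 probe sets in all. They were chosen by their mean deposited intensity over the 6 water arrays of both genotypes. Probe sets annotated to plastid or mitochondrial genes were left out, as were those that rose at least 2-fold on average with chitooctaose in both genotypes. The levels in water, and the absence of a rise in both genotypes, were therefore fixed by the choice and are described here without a test. Genotype differences and the difference between the responses of the genotypes were not used in the choice and were tested.

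The groups were erf5/6 double mutant seedlings treated with chitooctaose, erf5/6 seedlings treated with water, wild-type (WT) seedlings treated with chitooctaose and WT seedlings treated with water, with 3 arrays each and 12 in all. ERF5 and ERF6 are ethylene response factors, and chitooctaose is a soluble fragment of chitin, the cell wall polymer of fungi. All seedlings were whole, 14 days old and grown in liquid medium under constant light. Chitooctaose was given at 1 µM for 30 min, and the controls received water for the same time. The labels call the 3 arrays of a group biological replicates and do not give the ecotype, the mutant alleles or whether seedlings were pooled. No probe set was listed for ERF5 or ERF6, so the genotype labels were not checked against the targeted transcripts. On principal component 2 of all tested probe sets, which carried 7.42% of the variance, array 2 of chitooctaose-treated WT (0.67) and array 1 of water-treated WT (0.49) stood apart from the other 10, at -0.29 to 0.14. Counts of members called were the same without both: 1 in the mutant after chitooctaose and 0 in each of the other comparisons.

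In a green seedling, a large part of the polyadenylated RNA comes from a limited number of highly expressed genes. Nuclear genes supply the small subunits of the photosystems, the light-harvesting proteins and the regulators of carbon fixation, while the plastid genome supplies the core subunits. Proteins of the cytosolic ribosome are also encoded in the nucleus, by small gene families, and their messages are among the most abundant of any growing cell.

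The probe set ranked first averaged 7650 in water, the median member 4155 and the last member 3268, against a median of 80.2 over all probe sets. The 3 members just inside the threshold averaged 3275, 3271 and 3268, and the 3 probe sets just outside it averaged 3264, 3262 (APA1, an aspartic protease gene) and 3251. The choice left out 12 plastid probe sets with higher signals than the last member, from atpE at 6378 and atpB at 5642 down to petB at 3363. No probe set of comparable signal was left out for rising with chitooctaose. Among the 600 probe sets that rose at least 2-fold in both genotypes, the one with the highest signal averaged 1552 in water. Intensity depends on the probes as well as on the transcript, so the rank orders probe sets and not molecules. The highest intensity on an array lay between 6922 and 8073, and how near the strongest probe sets came to the limit of the scanner was not tested.

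**Figure D1:**
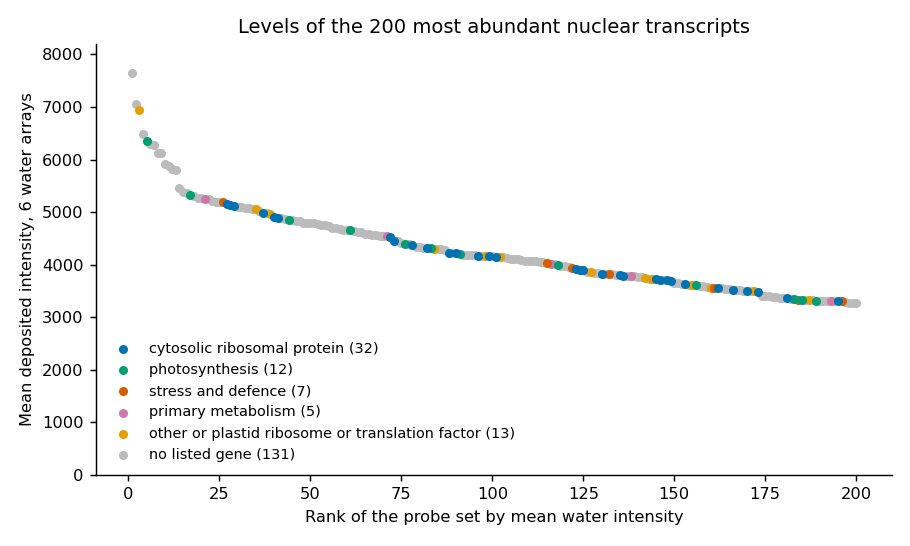
Mean deposited intensity over the 6 water arrays (linear axis from 0) against the rank of each of the 200 members, coloured by the role of the listed gene. Ribosomal members (32) spread from rank 27 downward, and 131 members in grey had no listed gene.

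The gene table named 60 of the 200 members with 1 gene and 9 with several genes, and left 131 without a gene. The share without a listed gene was 65.5% among the members and 38.4% among all probe sets. For those 131, neither the function nor the nuclear origin could be checked. Probe sets whose names carry the suffix for several matching transcripts (_s_at) made up 11.5% of the members (23 of 200) and 4.11% of all probe sets. Statements on function therefore cover 69 members, named with the locus code where the gene has no symbol. The roles were assigned from general knowledge of Arabidopsis after the members had been seen.

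Cytosolic ribosomal proteins were the most frequent role, with 32 of the 69 annotated members, 19 of the large subunit and 13 of the small subunit. Of these, 7 ribosomal members matched several genes each, so close paralogues could not be told apart there. Photosynthesis followed with 12 members, then stress and defence with 7, primary metabolism with 5, translation factors with 2 and plastid ribosomal proteins with 2. The other 9 had no role in these groups. No histone, actin, tubulin, photorespiration or cold-response gene of the lists examined was among the 69 annotated members. Most genes of these lists had no probe set of 1 gene. Such a probe set existed for 5 of 20 histone entries and 3 of 14 photorespiration entries. It existed for 6 of 17 actin and tubulin entries and 3 of 8 cold and dehydration entries. Whether the remaining genes were among the members without a listed gene could not be checked.

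Among the photosynthesis members, RCA (AT2G39730), which encodes Rubisco activase, the chaperone that keeps Rubisco active, ranked 5. Its deposited intensity was 6556, 5947 and 6685 in chitooctaose-treated mutant seedlings, 6354, 6699 and 5922 in water-treated mutant seedlings, 5981, 5667 and 6090 in chitooctaose-treated WT and 6397, 6708 and 6032 in water-treated WT. All 4 groups overlapped, and RCA had the lowest spread over the 12 arrays of all members with 1 gene, an SD of 0.04 on the normalized log2 scale. LHCB4.1 (AT5G01530), a minor light-harvesting protein of photosystem II, read 5554, 5667 and 5812 in chitooctaose-treated mutant seedlings, 5583, 5369 and 5294 in water-treated mutant seedlings, 5071, 5558 and 5026 in chitooctaose-treated WT and 5256, 5215 and 5193 in water-treated WT. The mutant arrays in water all lay above those of WT in these deposited values, by a normalized log2 difference of 0.08 ± 0.06 (SE, n = 3 per group, limma adjusted p = 0.942). ATPC1 (AT4G04640), the gamma subunit of the chloroplast ATP synthase, lay between 4256 and 4639 on all 12 arrays. PSAE-1 and PSAN of photosystem I averaged 4846 and 3340 in water, PSBY and PSBW of photosystem II 4310 and 4211, and AT2G26500, a small subunit of the cytochrome b6f complex, 4652. AT4G01150, a protein that curves the thylakoid membrane, averaged 3993.

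Of the translation machinery, the probe set shared by the 4 genes of the elongation factor eEF1A, which brings aminoacyl-tRNA to the ribosome, ranked 3. It read 7240, 6525 and 7206 in chitooctaose-treated mutant seedlings, 6823, 7025 and 6536 in water-treated mutant seedlings, 6115, 7007 and 6805 in chitooctaose-treated WT and 7408, 7187 and 6631 in water-treated WT, so that all groups overlapped. AT5G19510, the beta subunit of the factor eEF1B that recharges eEF1A, averaged 3728 in water. The ribosomal members averaged between 3308 and 5154 in water, with a median of 3907. The highest was AT3G60245 of the large subunit, followed by AT3G09200, also of the large subunit, at 5135 and AT5G20290 of the small subunit at 5123. AT1G52300, AT2G34480 (both large subunit) and AT5G15200 (small subunit) averaged 4984, 4901 and 4897. The plastid ribosome, which translates plastid messages and takes many of its proteins from the nucleus, was represented by AT2G43030 at 3737 and AT3G13120 at 3553.

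The remaining annotated members were enzymes of primary metabolism and proteins of stress and defence. GAPC2 (AT1G13440), the cytosolic glyceraldehyde-3-phosphate dehydrogenase of glycolysis, averaged 5259 in water and TPI (AT3G55440), the cytosolic triose phosphate isomerase, 4539. SAMDC (AT3G02470), S-adenosylmethionine decarboxylase of polyamine synthesis, averaged 3782. PRXR1 (AT4G21960), a secreted class III peroxidase, averaged 5185, the metallothionein MT1C 3943 and AT3G11630, a peroxiredoxin that removes peroxides in plastids, 3822. PYK10 (AT3G09260), the beta-glucosidase of the ER bodies of roots, averaged 4024. It read 4340, 4273 and 4414 in chitooctaose-treated mutant seedlings, 4028, 4392 and 3899 in water-treated mutant seedlings, 3867, 4011 and 3555 in chitooctaose-treated WT and 3691, 4256 and 3879 in water-treated WT. In these deposited values the mutant arrays lay above the WT arrays after chitooctaose, and in water the genotypes overlapped. On that scale 185 of the 200 members stood higher in the mutant after chitooctaose and 15 lower. The normalized log2 differences of PYK10 were 0.12 after chitooctaose and 0.11 in water. AT1G09310, of a family of unknown function (DUF538), averaged 5051, and AT2G45180, of the lipid transfer protein superfamily, 4962.

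The tissue label of whole seedlings was checked against marker genes of shoot and root. Of 4 green-tissue markers, 2 had a probe set of 1 gene, RCA and LHCB4.1, and both were members. Of 4 root markers, 3 had one: PYK10 was a member, and the root hair expansin genes EXPA7 and EXPA18 averaged 99.0 and 321 in water. The median over all tested probe sets was 119, above EXPA7 and below EXPA18. By these markers green tissue was represented in the RNA, and the statement for root rests mainly on PYK10. In such bulk RNA, fewer cells of a type and less RNA per cell cannot be told apart.

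**Figure D2:**
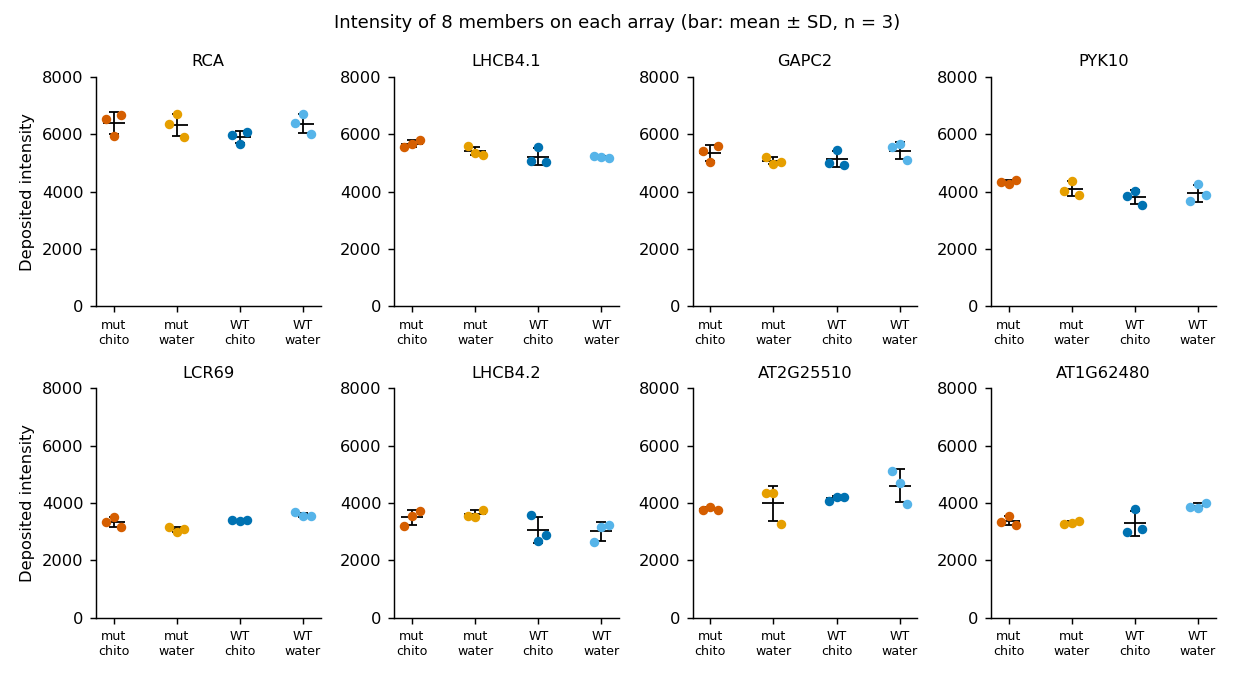
Deposited intensity (linear axis from 0) of 8 named members on each of the 12 arrays; points are arrays and bars the mean ± SD of 3 arrays, in the order mutant chitooctaose, mutant water, WT chitooctaose, WT water. In water the genotypes overlap for RCA, GAPC2, PYK10 and AT2G25510 and stand apart for LHCB4.1, LHCB4.2, LCR69 and AT1G62480.

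No member passed the test between the genotypes in any comparison. In water, 0 of the 200 members were called between the mutant and WT (limma, adjusted p under 0.05 over the 18680 probe sets tested), where the background over all probe sets was 0.0321% (6 called), 0.0214% higher and 0.0107% lower. After chitooctaose, 0 members were called against a background of 0.0214%, 0.0107% in each direction. Over both treatments, 0 were called against 0.0375%, 0.0268% higher and 0.0107% lower. With so few calls among all probe sets, a count of 0 in 200 is close to the background in each comparison. At an unadjusted p under 0.05 the members counted 5 in water, 2 after chitooctaose and 8 over both treatments. The lowest adjusted p of any member was 0.682 in water, 0.638 after chitooctaose and 0.504 over both treatments. Normalized log2 differences, mutant minus WT, lay between -0.19 and 0.31 in water and between -0.32 and 0.16 after chitooctaose.

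The intervals of these differences were narrow. In water, the 95% confidence interval of the mutant minus WT difference lay within 1.2-fold in either direction for 163 of the 200 members, against 18.8% of all tested probe sets. After chitooctaose this held for 172 members, against 18.1% of all tested, and over both treatments for 193, against 45.1%. Within 1.5-fold lay 199 members in water, and all 200 both after chitooctaose and over both treatments. The interval in water reached a median of 0.16 log2 units to each side among the members and 0.28 among all tested probe sets. For the single exception to the 1.5-fold bound in water, the light-harvesting gene LHCB4.2, the interval reached from 0.01 to 0.61.

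LHCB4.2 (AT3G08940) had the largest genotype difference among the members in water and ranked 189. It read 3206, 3555 and 3734 in chitooctaose-treated mutant seedlings, 3566, 3506 and 3772 in water-treated mutant seedlings, 3575, 2694 and 2904 in chitooctaose-treated WT and 2639, 3173 and 3248 in water-treated WT. In water all mutant arrays lay above all WT arrays, and after chitooctaose the genotypes overlapped because of 1 WT array. The log2 difference was 0.31 ± 0.14 in water (limma adjusted p = 0.813) and 0.12 ± 0.14 after chitooctaose (limma adjusted p = 0.925). Its paralogue LHCB4.1, named above, showed a smaller difference in water, and neither was called. After normalization LHCB4.2 also varied most over the 12 arrays of all members, 1.59-fold between the highest and the lowest.

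LCR69 (AT2G02100), a peptide of the defensin family, stood lower in the mutant. It read 3344, 3523 and 3178 in chitooctaose-treated mutant seedlings, 3162, 2993 and 3086 in water-treated mutant seedlings, 3405, 3376 and 3421 in chitooctaose-treated WT and 3676, 3547 and 3548 in water-treated WT. In water the genotypes did not overlap. After chitooctaose they overlapped in these deposited values and did not overlap after normalization. The log2 difference was -0.17 ± 0.07 in water (limma adjusted p = 0.798), -0.12 ± 0.07 after chitooctaose (limma adjusted p = 0.816) and -0.15 ± 0.05 over both treatments (limma adjusted p = 0.518). None of these was a call.

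AT2G25510, whose function is not given here, had the lowest p after chitooctaose among members with 1 gene. It read 3771, 3857 and 3763 in chitooctaose-treated mutant seedlings, 4339, 4361 and 3274 in water-treated mutant seedlings, 4085, 4225 and 4219 in chitooctaose-treated WT and 5122, 4718 and 3974 in water-treated WT. After chitooctaose all mutant arrays lay below all WT arrays, with a log2 difference of -0.22 ± 0.10 (limma adjusted p = 0.771). In water the groups overlapped and 1 array of each genotype was low. AT1G62480, also without a stated function, read 3349, 3548 and 3248 in chitooctaose-treated mutant seedlings, 3273, 3309 and 3389 in water-treated mutant seedlings, 2976, 3785 and 3105 in chitooctaose-treated WT and 3864, 3840 and 4001 in water-treated WT. Only the water-treated WT arrays stood apart, above all other groups, and the mutant minus WT difference in water was -0.19 ± 0.10 (limma adjusted p = 0.869). For PYK10 the difference was 0.12 ± 0.07 after chitooctaose (limma adjusted p = 0.819) and 0.11 ± 0.07 in water (limma adjusted p = 0.922). The unnamed probe set 266415_at, chosen after its values were seen, had the lowest p of all members after chitooctaose, with a difference of -0.32 ± 0.11 (limma adjusted p = 0.638).

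Counted without a test model, the 3 mutant arrays all lay above the 3 WT arrays in water for 8 members and all below for 9 after normalization, 8.5% of the members, against 10.3% of all tested probe sets. After chitooctaose the counts were 7 and 7, 7.0% of the members against 10.5%. These shares of arrays that do not overlap were thus no higher among the members than over the array as a whole, where limma called the 0.0321% and 0.0214% given above.

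Role groups showed small and uncalled shifts between genotypes, and the sign of the shift after chitooctaose turned with the scaling or with 1 array. The 12 photosynthesis members had a median log2 difference, mutant minus WT, of 0.06 in water, with 10 above 0, and of 0.02 after chitooctaose, with 8 above 0. On the deposited values these were 0.02 with 7 above 0 in water and 0.10 with 12 above 0 after chitooctaose. Without array 2 of chitooctaose-treated WT the median after chitooctaose was -0.02, with 8 below 0. The 32 ribosomal members had a median of -0.02 in water, with 23 below 0, and of -0.02 after chitooctaose, with 19 below 0. On the deposited values they had -0.06 with 32 below 0 in water and 0.07 with 30 above 0 after chitooctaose. After median centring the ribosomal median after chitooctaose was 0.01, with 18 above 0. Without array 2 of chitooctaose-treated WT it was 0.02, with 20 above 0. The 7 stress and defence members had a median of -0.05 in water and -0.07 after chitooctaose, with 5 and 6 below 0. On the deposited values the stress and defence median after chitooctaose was 0.02, with 4 above 0 and 3 below. In the reported setting the median of all tested probe sets was 0.00 in both comparisons, and 0 members of any role group were called.

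The response to chitooctaose was described only, since the choice of the members used it. In the mutant, 1 of the 200 members was called higher and 0 lower, where the background was 5.95% of all tested probe sets higher and 2.66% lower, 8.61% in all. In WT, 0 members were called, where the background was 6.06% higher and 4.08% lower, 10.1% in all. These backgrounds include the probe sets left out for rising in both genotypes, which neither the members nor the rank bands that follow contain. Probe sets next in signal also had few calls. For ranks 201 to 400 in water, 1.0% were called in each genotype. For ranks 401 to 1000 the share was 1.83% in the mutant and 3.33% in WT. Normalized log2 changes of the members lay between -0.16 and 0.24 in the mutant and between -0.18 and 0.20 in WT. Their medians were -0.02 in the mutant and -0.02 in WT, against -0.08 and -0.07 for all tested probe sets. The mutant had 72 members above 0 and 128 below, and WT 85 above and 115 below. These splits depended on the scaling, and in the mutant the direction turned. On the deposited values without normalization the mutant had 131 members above 0 and 69 below (median 0.02), and WT 22 above and 178 below (median -0.09). After median centring the mutant had 38 above and 162 below (median -0.06), and WT 52 above and 148 below (median -0.05).

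The 1 member called was 255479_at, which has no listed gene. It read 5276, 5202 and 5129 in chitooctaose-treated mutant seedlings, 4593, 4230 and 4096 in water-treated mutant seedlings, 4667, 4665 and 4527 in chitooctaose-treated WT and 4241, 4384 and 4229 in water-treated WT. In both genotypes all chitooctaose arrays lay above all water arrays, with log2 changes of 0.24 ± 0.06 in the mutant and 0.20 ± 0.06 in WT. The call in the mutant was lost under several other settings, among them with any 1 of the 3 chitooctaose arrays of the mutant left out, and these are given with the other alternatives.

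**Figure D3:**
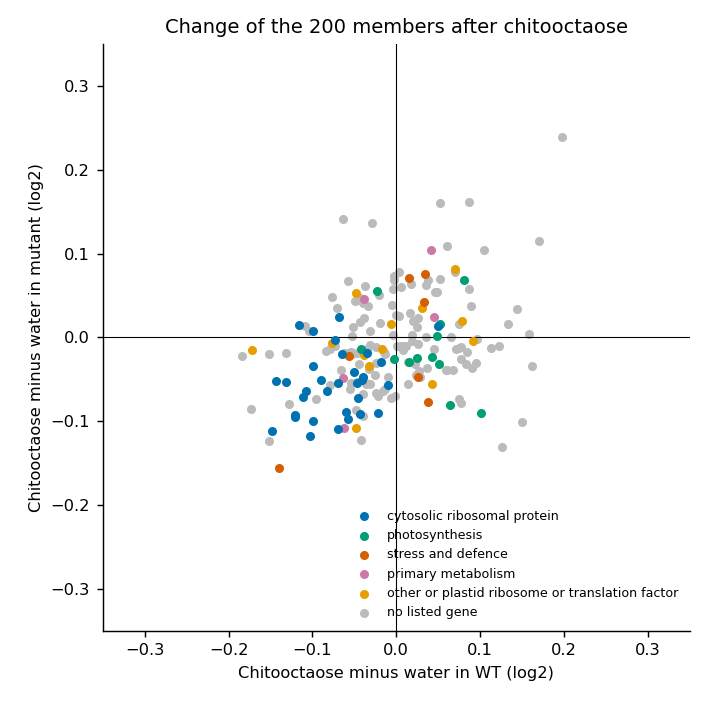
Normalized log2 change of each of the 200 members after chitooctaose in the mutant (vertical axis) against WT (horizontal axis), coloured by role. All changes lie between -0.18 and 0.24, and 28 of 32 ribosomal members lie below 0 in the mutant and 31 of 32 in WT.

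Ribosomal members were slightly below their water level in both genotypes. Their median log2 change was -0.05 in the mutant, with 28 of 32 below 0, and -0.07 in WT, with 31 of 32 below 0, and 0 were called in either. The direction of the median held under each scaling. On the deposited values without normalization it was -0.02 in the mutant, with 23 below 0, and -0.15 in WT, with 32 below 0. After median centring it was -0.09 with 32 below 0 in the mutant and -0.11 with 31 below 0 in WT. The large subunit alone had medians of -0.06 in the mutant and -0.09 in WT, and the small subunit of -0.05 in both. Without array 1 of chitooctaose-treated WT the WT medians were -0.05 for the large subunit, -0.03 for the small subunit and -0.04 for all 32, with 27 of the 32 below 0. The ribosomal medians also lay close to those of all tested probe sets, -0.08 and -0.07.

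Single ribosomal members show how small these changes were. AT3G09200, a large-subunit protein, read 4720, 4607 and 4896 in chitooctaose-treated mutant seedlings, 4838, 5010 and 5210 in water-treated mutant seedlings, 4603, 4938 and 4847 in chitooctaose-treated WT and 5362, 5287 and 5106 in water-treated WT. In these deposited values the chitooctaose arrays lay below the water arrays in WT and overlapped by 1 array in the mutant, with log2 changes of -0.11 ± 0.06 in the mutant and -0.07 ± 0.06 in WT. AT3G05560, also of the large subunit, read 3554, 3289 and 3382 in chitooctaose-treated mutant seedlings, 3404, 3664 and 3585 in water-treated mutant seedlings, 3320, 3401 and 3202 in chitooctaose-treated WT and 4153, 3839 and 3705 in water-treated WT. The WT arrays did not overlap between treatments, and those of the mutant did. Its changes were -0.11 ± 0.07 in the mutant and -0.15 ± 0.07 in WT. AT3G62870 (-0.12 in the mutant), AT3G60245 (-0.10 in the mutant), AT5G20290 (-0.14 in WT), AT3G09630 (-0.13 in WT) and AT3G53430 (-0.12 in WT) were the other ribosomal genes among the 6 lowest changes of a genotype, counted over members with 1 gene. Both probe sets for the same 3 small-subunit genes (AT4G33865, AT3G44010 and AT3G43980) differed in sign: 0.01 and -0.09 in the mutant, and 0.05 and -0.04 in WT.

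Photosynthesis members showed no common direction. Their median change was -0.02 in the mutant, with 8 of 12 below 0, and 0.05 in WT, with 9 of 12 above 0. The sign depended on the scaling: on the deposited values the medians were 0.01 in the mutant and -0.03 in WT, and after median centring -0.06 in the mutant and 0.01 in WT. Without array 1 of the chitooctaose-treated group the median was 0.01 in the mutant, and in WT 6 members lay above 0 and 6 below. The highest change in WT among the members with 1 gene was that of LHCB4.2, 0.10 ± 0.14, followed by UBC28, a ubiquitin-conjugating enzyme, with 0.09 ± 0.10. AT4G01150 changed by 0.07 ± 0.07 in the mutant and 0.08 ± 0.07 in WT, AT2G43030 of the plastid ribosome by 0.08 ± 0.07 and 0.07 ± 0.07, and AT2G10940, of the lipid transfer protein superfamily, by 0.02 ± 0.06 and 0.08 ± 0.06. The WT values of AT4G01150, AT2G43030, AT2G10940 and PSAN lay at or just below 0 on the deposited values.

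Because a common factor cancels within an array, the mean log2 intensity of the ribosomal members was also set against that of the photosynthesis members on the same array. This difference averaged -0.14 ± 0.08 in chitooctaose-treated mutant seedlings, -0.10 ± 0.02 in water-treated mutant seedlings, -0.12 ± 0.11 in chitooctaose-treated WT and -0.01 ± 0.05 in water-treated WT (SD, n = 3 each). The chitooctaose arrays spanned the water arrays in the mutant and overlapped them in WT. Single arrays set the spread: in chitooctaose-treated WT the values were -0.23, -0.02 and -0.12, and in chitooctaose-treated mutant seedlings -0.05, -0.20 and -0.17. Such a difference shows unequal change of the role groups and not which of them changed.

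**Figure D4:**
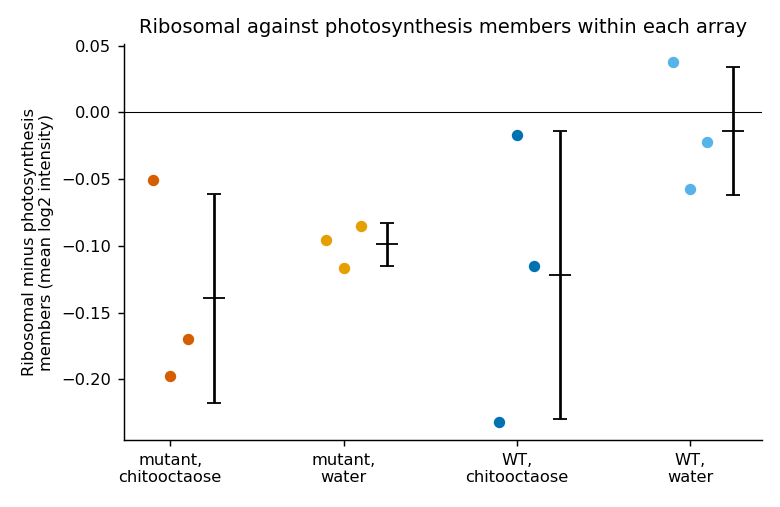
Mean log2 intensity of the 32 ribosomal members minus that of the 12 photosynthesis members on each array, with the mean ± SD of 3 arrays beside the points. Water-treated WT averages -0.01 and the other groups lie between -0.10 and -0.14, with single arrays overlapping.

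Among stress and metabolism members, the dehydrin gene AT1G54410, whose product protects cells during water loss, had the lowest change in the mutant. It read 2852, 3251 and 2609 in chitooctaose-treated mutant seedlings, 2793, 3596 and 2977 in water-treated mutant seedlings, 3282, 2838 and 2893 in chitooctaose-treated WT and 3575, 3356 and 3500 in water-treated WT. The arrays of the mutant overlapped between treatments and those of WT did not in the deposited values, and the changes were -0.16 ± 0.11 in the mutant and -0.14 ± 0.11 in WT. SAMDC had the highest change in the mutant among members with 1 gene, at 0.10 ± 0.09, and read 4246, 3965 and 4322 in chitooctaose-treated mutant seedlings, 3759, 3705 and 3881 in water-treated mutant seedlings, 3826, 3284 and 3848 in chitooctaose-treated WT and 3492, 3932 and 3920 in water-treated WT. The treatments did not overlap in the mutant in these values and overlapped after normalization, and in WT the change was 0.04 ± 0.09. AT3G05730, a defensin-like peptide, changed by 0.08 ± 0.09 in the mutant and 0.03 ± 0.09 in WT. AT1G62480 had the lowest change in WT among members with 1 gene, -0.17 ± 0.10, with -0.02 ± 0.10 in the mutant.

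The responses of the genotypes were then compared with each other. No member was called for the difference between the responses, 0 of 200 with a background of 0%, and at an unadjusted p under 0.05 there were also 0. The lowest adjusted p from limma among the members was 0.997. The differences, mutant response minus WT response, lay between -0.26 and 0.20 log2 units. Their 95% intervals lay within 1.2-fold for 83 members, against 4.21% of all tested probe sets, and within 1.5-fold for 197. PSAN, a lumenal subunit of photosystem I, had one of the lowest p values, with a difference of -0.14 ± 0.09, made of -0.08 in the mutant and 0.06 in WT. AT2G41840, of the small ribosomal subunit, had 0.13 ± 0.09, made of 0.01 in the mutant and -0.12 in WT, and AT1G62480 had 0.16 ± 0.14 (limma adjusted p = 0.997 for all 3). On the deposited values without normalization the median of all tested probe sets for this difference moved from 0.00 to 0.10 and that of the members to 0.12, so these single values are best read against that shift.

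Across the 200 members the changes in the mutant and in WT correlated with Pearson's r = 0.357 and Spearman's rho = 0.333, as a description over probe sets that share the same arrays. The deposited levels in water correlated between the mutant and WT with r = 0.965 on the log2 scale.

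The members varied less between replicate arrays than probe sets of lower signal. The SD between replicate arrays, pooled over the 4 groups on the normalized log2 scale, had a median of 0.07 among the members, with a range from 0.03 to 0.19. It was 0.09 for ranks 201 to 400, 0.11 for ranks 401 to 1000, 0.13 for ranks 1001 to 4000, 0.15 for ranks 4001 to 10000 and 0.16 over all tested probe sets. The largest range of group means of any member was 0.32 log2 units. No member had group means 2-fold apart, and neither did any probe set of ranks 201 to 400 or 401 to 1000. The ranks hold no probe set that rose at least 2-fold in both genotypes, so such changes were removed from these bands beforehand. The highest of those left out averaged 1552 in water, and the median of ranks 401 to 1000 was 1638. Over all tested probe sets, which include those left out for rising, the share with group means 2-fold apart was 4.50% (840). The choice itself excluded only rises in both genotypes. Signal level, quantile normalization and spread move together here, and their part in the low spread was not tested.

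**Figure D5:**
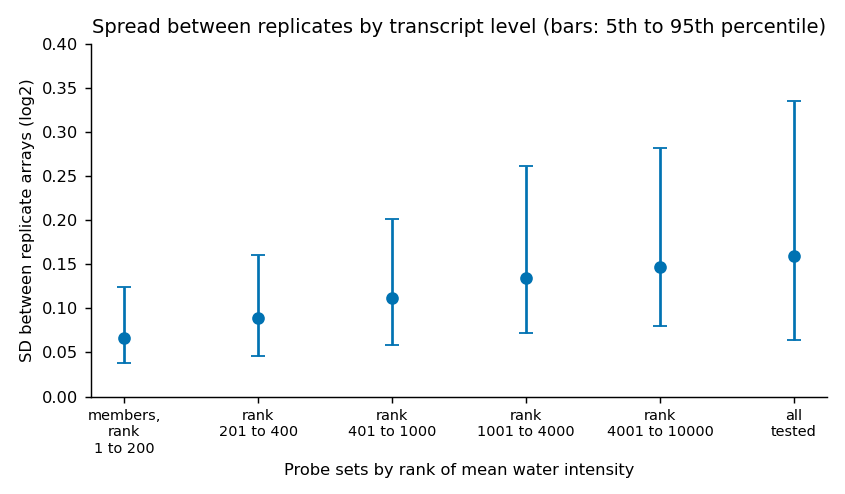
SD between replicate arrays (log2) by rank of mean water intensity; points are medians over probe sets and bars reach from the 5th to the 95th percentile. The median is 0.07 for the 200 members and 0.16 for all tested probe sets, and it increases with falling signal.

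Between the highest and the lowest of the 12 normalized values, members differed 1.18-fold at the median, from 1.04-fold to 1.59-fold. This fold was under 1.2 for 127 members and over 1.5 for 3, LHCB4.2 and the unnamed probe sets 266415_at and 255220_at, which were picked out after their values were seen. The smallest, 1.04-fold after normalization, was that of 252430_at, also without a listed gene. Its deposited intensity was 5394, 5301 and 5896 in chitooctaose-treated mutant seedlings, 5460, 5565 and 5068 in water-treated mutant seedlings, 5344, 5180 and 5125 in chitooctaose-treated WT and 5535, 5530 and 5154 in water-treated WT. Its deposited values overlapped in all groups, and after normalization its 4 differences between groups were at most 0.01 in size. After RCA, the members with 1 gene and the lowest SD over the arrays were the small-subunit gene AT3G04840 (0.04), ATPC1 (0.05), the large-subunit gene AT2G01250 (0.05) and AT2G10940 (0.05). The highest were LHCB4.2 (0.19), AT1G54410 (0.16), AT2G25510 (0.15), AT1G62480 (0.13) and AT3G09630 (0.12).

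Among the probe sets kept by the choice, the composition of the strongest signals was largely the same after 30 min of chitooctaose. The 600 probe sets that rose at least 2-fold in both genotypes were barred from both rankings. How many of them would have ranked among the 200 highest after chitooctaose was not counted. Of the 200 members, 191 were also among the 200 highest probe sets of the chitooctaose arrays, with the same exclusions. The 9 that were not included AT1G54410, which ranked 251 after chitooctaose and 196 in water, and the ribosomal genes AT3G09630 and AT5G35530, which ranked 213 and 232 after chitooctaose. Probe sets that entered included PRK, the phosphoribulokinase gene of the Calvin cycle, at rank 191 after chitooctaose and 205 in water. AT3G16530, a legume lectin family gene, ranked 173 after chitooctaose and 426 in water. AT3G16530 averaged 3376 on the chitooctaose arrays and 2311 on the water arrays. Together, the members carried 13.6% ± 0.069 of the summed intensity in chitooctaose-treated mutant seedlings, 14.3% ± 0.139 in water-treated mutant seedlings, 13.6% ± 0.046 in chitooctaose-treated WT and 14.1% ± 0.295 in water-treated WT (SD, n = 3 each). The chitooctaose arrays spanned 13.5% to 13.7% and the water arrays 13.8% to 14.4%, and since the water arrays chose the members, this is a description.

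Genes of functional lists for photosynthesis, translation, metabolism, stress, cytoskeleton and chromatin were examined beside the members. The lists held 298 entries, of which 40 genes had a probe set of 1 gene and 39 were tested. In every comparison 0 of the 39 were called in either direction. The background was 8.61% of all tested probe sets for the chitooctaose response in the mutant, 10.1% for that in WT, and between 0% and 0.0375% for the genotype differences and the difference between the responses. A gene counts as measured here where it had a probe set of 1 gene. Among light-harvesting genes 2 of 3 measured were members (18 listed), and among photosystem I subunits 2 of 2 (12 listed). For photosystem II subunits it was 2 of 2 (11 listed), and for glycolysis enzymes 2 of 2 (8 listed). Carbon fixation genes gave 1 of 3 (19 listed) and translation factors 1 of 5 (20 listed). The 3 measured photorespiration genes, the 6 measured tubulin genes and the 4 tested histone genes lay outside the 200. No actin gene of the lists had a probe set of 1 gene.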

How the data were processed

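RNA of 12 samples of whole seedlings was measured on expression arrays, and the authors deposited 1 intensity per probe set and array on a linear scale. How the authors summarised, background-corrected or scaled these intensities was not stated in the labels or file headers. Per the labels' protocols, Trizol-extracted RNA was amplified from an oligo(dT) primer into biotinylated antisense RNA. Sample titles gave genotype, treatment and replicate. After quantile normalization of all 22746 probe sets, a floor of 16 was applied before the log2 transform. The 4066 probe sets at that floor on all arrays were left out, and 18680 entered a limma fit (version 3.58.1, R 4.3.3) of the 4 group means over the 12 arrays, with moderated variances and Benjamini-Hochberg adjustment within each comparison. A difference was called at an adjusted p under 0.05, and all tests were two-sided. With 3 arrays per group the number of arrays limits the precision. Tables were handled with pandas 2.3.3 in Python 3.11.15.

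Gene names came from the platform annotation, updated by gene identifier through a RefSeq table of assembly TAIR10.1. The members, the gene lists and the tests were chosen with earlier results of these data known. The rule for named members took the 15 with the highest signal and 1 gene, those on the gene lists, the 3 with the lowest p in each genotype comparison and for the difference between the responses, the 6 highest and 6 lowest changes with chitooctaose in each genotype, and the 5 lowest and 5 highest SDs over the arrays. The list of ribosomal genes could not be filled from the gene table, so the ribosomal group rests on assigned roles. Over 18 pairs of same-numbered arrays, correlations of deviations from group means ran from -0.265 to 0.427 and 6 were over 0.1. Pairs of different number ran from -0.367 to 0.24. Between mutant and WT, same-numbered arrays 1 to 3 gave 0.083, 0.172 and 0.427 in water and -0.06, 0.136 and 0.151 after chitooctaose. Whether arrays of the same number shared a source of variation was not tested, and the reported fit held no term for it. The procedure was also run on simulated data with the means and spreads of the real values, and the outcome is not given here. Alternatives were the deposited scale, median centring, other treatments of low values, an intensity trend, array weights, fewer arrays and the replicate number as a block.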

Additional observations from a re-analysis of the deposited data

How the results depend on the processing

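The 4 counts of members called for the genotype differences and for the difference between the responses were 0 under every alternative run. The count in the mutant after chitooctaose, 1 in the reported setting, was 0 after median centring, when 32 was added instead of a floor, with the 40% dimmest probe sets left out, with only the arrays compared and, chosen after seeing the data, with only members that have a listed gene. It was also 0 with the replicate number as a term (replicate block), which changed no other count, and 2 when probe sets never above the floor were kept. With 1 array left out at a time it lay between 0 and 1, and it was 0 without array 2 or 3 of water-treated mutant seedlings or any of the 3 chitooctaose-treated mutant arrays. The count in WT, 0 in the reported setting, was 1 with those floor probe sets kept and 1 with an intensity trend and a robust prior. The cause was not tested. For 255479_at, the member called, the change lay between 0.20 and 0.26 under the 8 alternatives run on single members that ended its call. The median SD between replicate arrays of the members was 0.0771 on the deposited values, 0.0746 after median centring and between 0.0612 and 0.0685 with 1 array left out. The processing before deposit, 131 members without a listed gene and 3 arrays per group limit what these values can show.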
